A study of Xenopus laevis with 5 samples.

Results

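The foxi4.2 genes of the frog Xenopus laevis encode forkhead transcription factors of the FoxI class, and were read here on 3 probe sets, a probe set being the group of short oligonucleotides on the array that together report a transcript. All probe sets that GEO's platform annotation names foxi4.2.L or foxi4.2.S were taken, 2 for foxi4.2.L and 1 for foxi4.2.S, of 15491 probe sets other than controls and of 7531 named genes. Those of foxi4.2.L are called the brighter and the dimmer one here, and their identifiers end in S1_at and A1_at. L and S mark the copies, called homeologs, that this species holds of many genes. The study measured RNA of ectodermal explants on 5 Affymetrix arrays, 1 per sample. In 2 samples the embryos had received ICD and FoxJ1 RNA, and in 3 samples ICD RNA alone. The synthetic RNA was injected at the 2-cell stage, the prospective ectoderm was explanted at stage 9 to 10 onto fibronectin, and RNA was taken at stage 22. ICD, in this field the usual name of the intracellular domain of Notch, was thus present in both groups, and a sample without it was not analysed here. The labels spell out neither ICD nor how many explants made up a sample, nor whether replicates stem from different clutches, and the p-values therefore cover the spread among these arrays alone, which may be technical.

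Forkhead proteins bind DNA through a winged-helix domain. In mammals FOXI1 directs ion-transporting cells of the kidney and inner ear, which carry proton pumps, carbonic anhydrases and anion exchangers, and in the skin of the frog embryo foxi1 is known to act in ionocytes, the scattered ion-transporting cells. Notch activity is known to hold back both ionocytes and multiciliated cells in this skin, and FoxJ1 is a forkhead factor of motile cilia. RefSeq lists XFD2 among the synonyms of foxi4.2, ema and foxi1e among those of foxi1.L, and foxi1a under both. Whole explants were lysed, so the arrays do not show which cells held the foxi4.2 RNA, and fewer cells of a type cannot be told apart from less RNA per cell.

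The deposited values are MAS5 signals on a linear scale, whose mean, without the lowest and highest 2%, lay between 200.02 and 200.03 on every array. Median signals lay between 62.1 and 73.5. As the background level of an array the brightest of 20 controls with no match in frog RNA was taken, which lay between 16.9 and 28.4. Poly-A control RNAs, bacterial transcripts that are added before labelling, were bright on ICD+FoxJ1 replicate 1 and ICD replicates 1 and 2 (median signals of 318 to 368) and dim on ICD+FoxJ1 replicate 2 and ICD replicate 3 (1.90 and 2.95). Controls for bioB, a bacterial transcript, differed along the same split, with medians of 86.4 to 104.25 on the 3 arrays with bright poly-A controls and of 227.85 and 250.5 on the others. The labels and headers name no batch, and both groups hold arrays of either kind. Log2 signals of ICD replicate 1 correlated across probe sets with those of the other ICD arrays at r of 0.927 and 0.929, against 0.966 between these 2. Probe sets are not independent replicates.

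With FoxJ1, both foxi4.2 homeologs fell, each by its brighter or only probe set. The brighter probe set of foxi4.2.L read 78.9 and 119.1 on the ICD+FoxJ1 arrays, against 389.6, 279.3 and 436.9 on the ICD arrays. The groups did not overlap, and each array lay well above its background level, by 4.67 and 4.71 times with FoxJ1 and by 13.72 to 16.87 times with ICD alone. The means were 99.0 ± 28.4 (SD, n = 2) with ICD and FoxJ1 and 369 ± 80.9 (SD, n = 3) with ICD, a ratio of 0.269. Over the 6 pairings of an ICD+FoxJ1 array with an ICD array, the signal ratio ran from 0.181 to 0.426. On the scale of log2(signal + 16), where the added 16 makes a difference understate the change of a dim probe set, foxi4.2.L fell by 1.74 (SE 0.29, 95% interval -2.40 to -1.08). Its adjusted p in limma, a linear model fitted to all 11618 probe sets tested, was 0.0118. Of these probe sets 7.47% were called at the threshold of 0.05, 2.99% of them lower and 4.48% higher with FoxJ1, and 97 fell as far as this one or further, itself included.

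The S copy, foxi4.2.S, had signals of 63.4 and 56.0 on the ICD+FoxJ1 arrays, against 257.2, 143.2 and 145.7 on the ICD arrays. Again the groups did not overlap, and the arrays with FoxJ1 lay close together, whereas ICD replicate 1 stood above the other ICD arrays. The means were 59.7 ± 5.23 (SD, n = 2) with ICD and FoxJ1 and 182 ± 65.1 (SD, n = 3) with ICD, a ratio of 0.328. Single pairings of arrays gave ratios of 0.218 to 0.443. Signals of foxi4.2.S were 3.75 and 2.21 times the background level with FoxJ1 and 5.63 to 9.06 times with ICD alone. The gene fell by 1.34 on the log2 scale (SE 0.30, 95% interval -2.04 to -0.64, limma adjusted p = 0.0386). Lying entirely below the ICD arrays was common, at 23.0% of all probe sets tested.

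**Figure D1:**
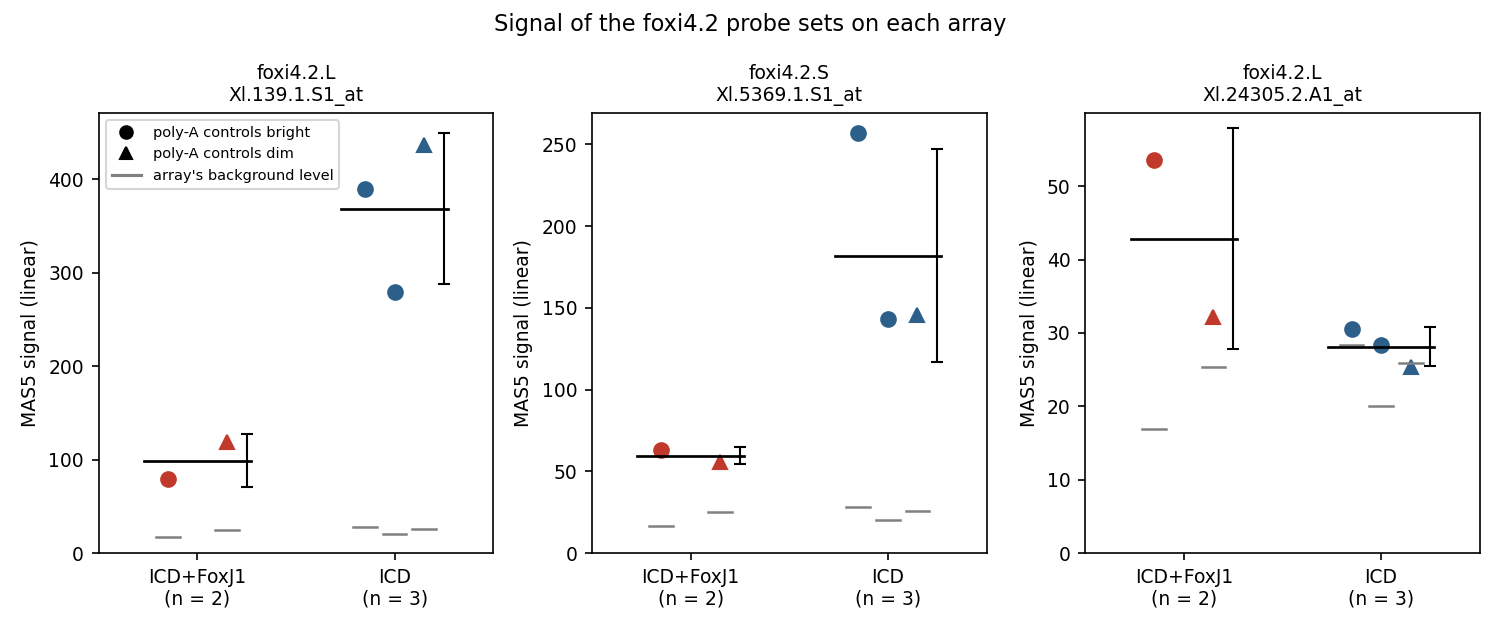
MAS5 signal (linear scale, from 0) of the 3 foxi4.2 probe sets on each array, ICD+FoxJ1 left of ICD. Points are arrays, with circles for bright and triangles for dim poly-A controls, black lines and bars are the group mean and SD, and short grey lines mark each array's background level. In the first 2 panels both ICD+FoxJ1 points lie below every ICD point, and in the third panel all points lie at 53.5 or lower.

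The dimmer probe set for foxi4.2.L did not pass the test, and so near to background it could hardly have shown a fall. Its signals were 53.5 and 32.2 on the ICD+FoxJ1 arrays, against 30.6, 28.4 and 25.4 on the ICD arrays. It was 3.17 and 1.27 times the background level on the arrays with FoxJ1 and 0.98 to 1.42 times that level on those with ICD, so that the ICD signals were barely distinguishable from background. The means were 42.85 ± 15.1 (SD, n = 2) with ICD and FoxJ1 and 28.1 ± 2.61 (SD, n = 3) with ICD. The log2 difference was 0.39 (SE 0.23, 95% interval -0.14 to 0.93) and did not pass (limma adjusted p = 0.340). Although both arrays with FoxJ1 stood above all ICD arrays, as 21.2% of tested probe sets did, replicate 2 did so only narrowly. It passed the filter on dim probe sets with a mean log2 signal of 5.62, where the limit was 5.15.

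Probe sets bind with different strength, so the levels of the homeologs were not set against each other, only the ratio between them from array to array. The log2 ratio of foxi4.2.L, by its brighter probe set, over foxi4.2.S was 0.26 and 0.91 on the ICD+FoxJ1 arrays, against 0.57, 0.89 and 1.49 on the ICD arrays. The groups overlapped. The mean ratio was 0.58 ± 0.46 (SD, n = 2) with ICD and FoxJ1 and 0.98 ± 0.46 (SD, n = 3) with ICD, a difference of -0.40 (two-sided exact permutation test, p = 0.5). A larger fall of one homeolog than of the other was therefore not detectable with these arrays. Over its 10 splits this exact test could not go below p = 0.1. A probe set for one homeolog can also bind RNA of the other, and how far that happened here was not tested.

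No ratio between the probe sets of foxi4.2.L is given, since the dimmer one was near background on the ICD arrays. The statement that foxi4.2.L fell thus rests on 1 of its 2 probe sets.

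**Figure D2:**
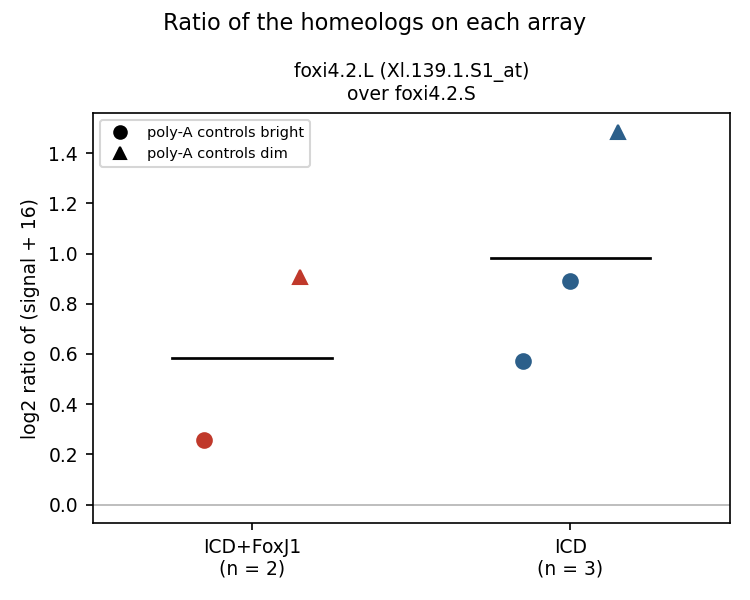
Log2 ratio of foxi4.2.L, by its brighter probe set, over foxi4.2.S on each array, with ICD+FoxJ1 left of ICD, lines for group means, circles for bright and triangles for dim poly-A controls. The ICD+FoxJ1 points at 0.26 and 0.91 overlap the ICD points, which run from 0.57 to 1.49.

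Both falls kept their direction on either side of the poly-A split, as groups that do not overlap must. Among the arrays with bright poly-A controls, 1 with and 2 without FoxJ1, the log2 difference was -1.87 for foxi4.2.L and -1.39 for foxi4.2.S, and between the 2 arrays with dim controls it was -1.75 and -1.17, with no test. The call did not hold in every setting. Among other settings, that of foxi4.2.L was lost without ICD+FoxJ1 replicate 1 (limma adjusted p = 0.146) and without ICD+FoxJ1 replicate 2 (0.0627), each of which leaves 1 array with FoxJ1 that is assumed to vary like the others, and among the bright poly-A arrays alone (0.141), over a range of 0.00977 to 0.146 in 14 alternative settings. That of foxi4.2.S was lost, among other settings, when ICD+FoxJ1 replicate 1 (0.218), ICD+FoxJ1 replicate 2 (0.230), ICD replicate 2 (0.0523) or ICD replicate 3 (0.0616) was taken out, with the poly-A split as a block (0.0798), among the bright poly-A arrays alone (0.343) and with no filter on dim probe sets (0.0545), over a range of 0.0195 to 0.343. Without ICD replicate 1, the array on which it was highest, foxi4.2.S still fell, by 1.09 (limma adjusted p = 0.0195).

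**Figure D3:**
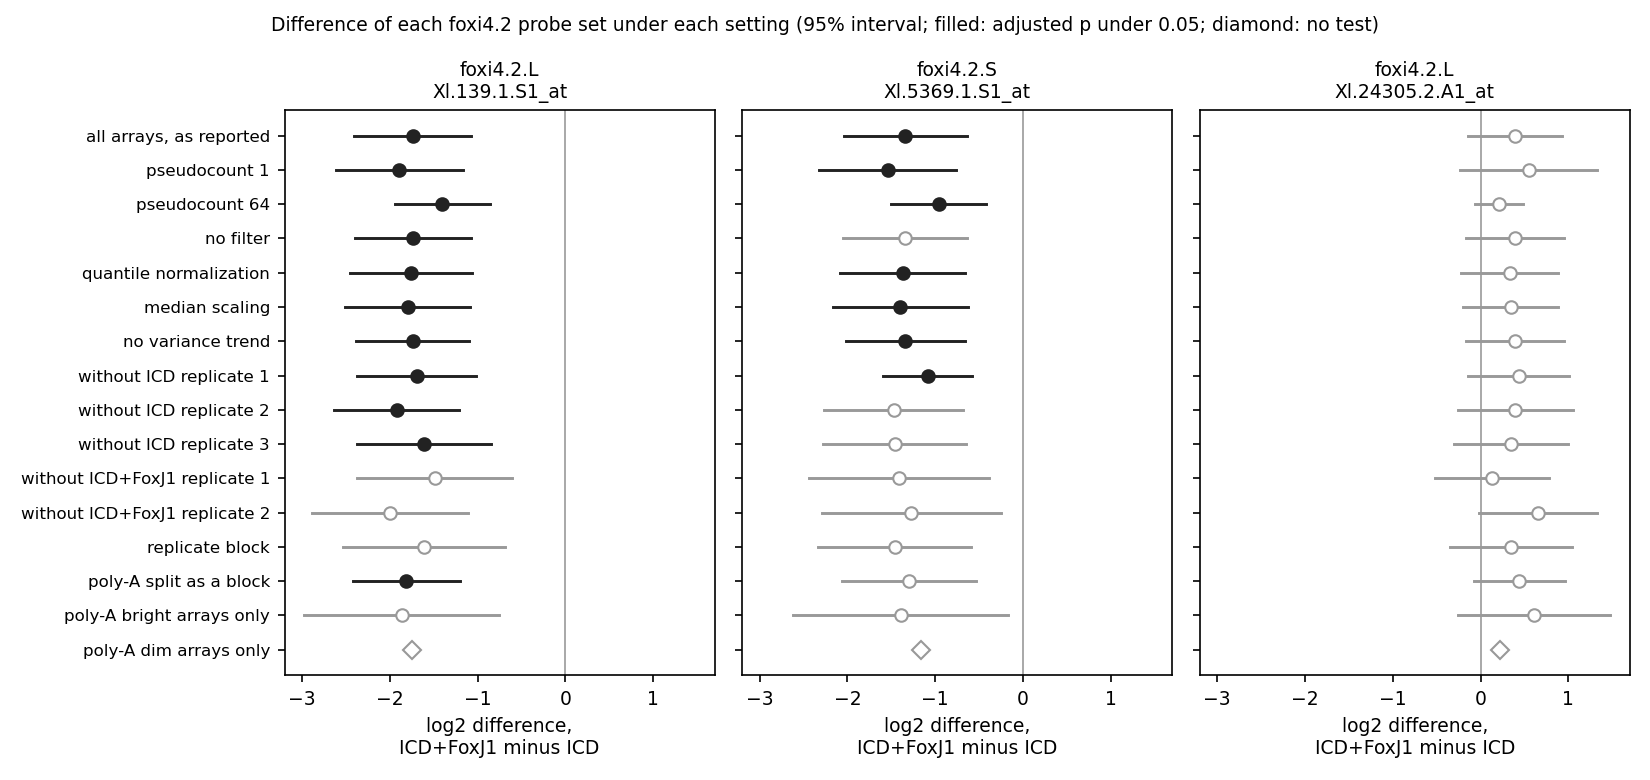
Log2 difference, ICD+FoxJ1 minus ICD, of each foxi4.2 probe set (columns) under each processing setting (down the page), with 95% intervals from limma, filled points where the adjusted p was under 0.05 and a diamond where no test was possible. Points of the brighter foxi4.2.L probe set lie between -2.0 and -1.40, those of foxi4.2.S between -1.54 and -0.96, and those of the dimmer foxi4.2.L probe set above 0.

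Among other FoxI genes, only foxi1.L was named by a probe set used here. Its signals were 22.4 and 1.3 on the ICD+FoxJ1 arrays, against 3.4, 2.4 and 17.9 on the ICD arrays. It exceeded the background level on ICD+FoxJ1 replicate 1 alone and was left out by the filter, so no direction can be given for it. Foxi2 and foxi4.1 were not analysed here.

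In the whole forkhead family, read as every named gene whose symbol begins with fox, 21 genes were on the array and 8 were bright enough to be tested. Among all probe sets tested, 2.99% were called lower and 4.48% higher, and 12.3% passed unadjusted in each direction. Of the 8 forkhead genes, the foxi4.2 homeologs were the 2 called, both lower. Of the other 6, too few to set against these shares, none was called by limma and none had an unadjusted p under 0.05. Their signed differences were -0.45 in foxc2.S, a gene of mesenchyme, 0.54 in foxo3.L, a stress-responsive factor, 0.33 in foxe3.L, a lens gene, 0.09 in foxk2.L, -0.06 in foxn4.S, a gene of multiciliated cells, and 0.03 in foxa1.S, a gene of the small secretory cells of frog skin. Foxa1.S had signals of 112.4 and 115.0 on the ICD+FoxJ1 arrays, against 208.5, 74.3 and 85.1 on the ICD arrays. Like foxi4.2.S, it was highest on ICD replicate 1, but its groups overlapped. The share of all probe sets that were highest on that array was not counted.

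Of the list of ionocyte genes, which holds regulators, proton pump subunits, carbonic anhydrases and transporters, 23 genes were on the array and 17 were tested. Besides the foxi4.2 homeologs, 3 of the remaining 15 rose, 0 fell and 12 did not pass the limma test, with 5 higher and 0 lower at an unadjusted p under 0.05. Over all probe sets tested, 4.48% were called higher and 2.99% lower, and 12.3% were higher and 12.3% lower at an unadjusted p under 0.05. The median difference of these 15 was 0.41, beside -0.03 over all probe sets tested. The foxi4.2 homeologs were lower with FoxJ1, and the other 3 genes of this list that passed were higher. The list was matched by exact symbol, so related genes under other symbols were not counted in either direction. One of these, atp6v1al.L, differed by -1.29 without passing (limma adjusted p = 0.0771).

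The largest of these rises was that of atp6v0d2.L, a subunit of the proton pump, with signals of 283.1 and 157.4 on the ICD+FoxJ1 arrays, against 32.5, 40.4 and 45.7 on the ICD arrays. It rose by 2.04 on the log2 scale (limma adjusted p = 0.00733, SE 0.29). Ca12.L, a carbonic anhydrase of the cell membrane, had 81.4 and 77.1 with ICD and FoxJ1, against 11.6, 29.2 and 27.4 with ICD, and rose by 1.33 (limma adjusted p = 0.0269). It lay below the background level of ICD replicate 1 (28.4) and near that of ICD replicate 3 (25.9). Atp6v0d2.L, too, was near background on ICD replicate 1, so the sizes of these rises are uncertain. Tfcp2l1.S, whose mouse counterpart is a transcription factor of the kidney collecting duct, had 888.2 and 714.1 with ICD and FoxJ1, against 421.8, 329.0 and 450.9 with ICD. It rose by 0.98 (limma adjusted p = 0.0484), and its homeolog tfcp2l1.L differed by 0.61 without passing. The call of tfcp2l1.S held in 2 of 14 alternative settings (limma adjusted p 0.0303 to 0.338), that of ca12.L in 9 (0.0154 to 0.200) and that of atp6v0d2.L in 13 (0.00340 to 0.0765).

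The members next in order of p did not pass. Besides tfcp2l1.L they were ca2.L, a cytosolic carbonic anhydrase (0.91), atp6v1a.L, the catalytic pump subunit (0.54), aqp3.L, a water and glycerol channel (-0.54), and the pump subunits atp6v1b1.L (-0.71) and atp6v1e1.L (0.38). Cftr.L, kcnj10.L and ubp1.L were at or below background on all 5 arrays. The summed signal of the 23 genes was 4984 and 4334 on the ICD+FoxJ1 arrays, against 3964, 3902 and 4458 on the ICD arrays, and the groups overlapped.

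The count of ionocyte genes, 3 higher and 2 lower with the foxi4.2 homeologs included, moved with the processing and with single arrays. With a pseudocount of 1, no filter, quantile normalization, median scaling or no variance trend 2 genes rose. Taking out ICD+FoxJ1 replicate 1 left 0 that rose and 0 that fell, taking out ICD+FoxJ1 replicate 2 left 1 and 0, and taking out either ICD replicate 2 or ICD replicate 3 left 2 that rose and 1 that fell.

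**Figure D4:**
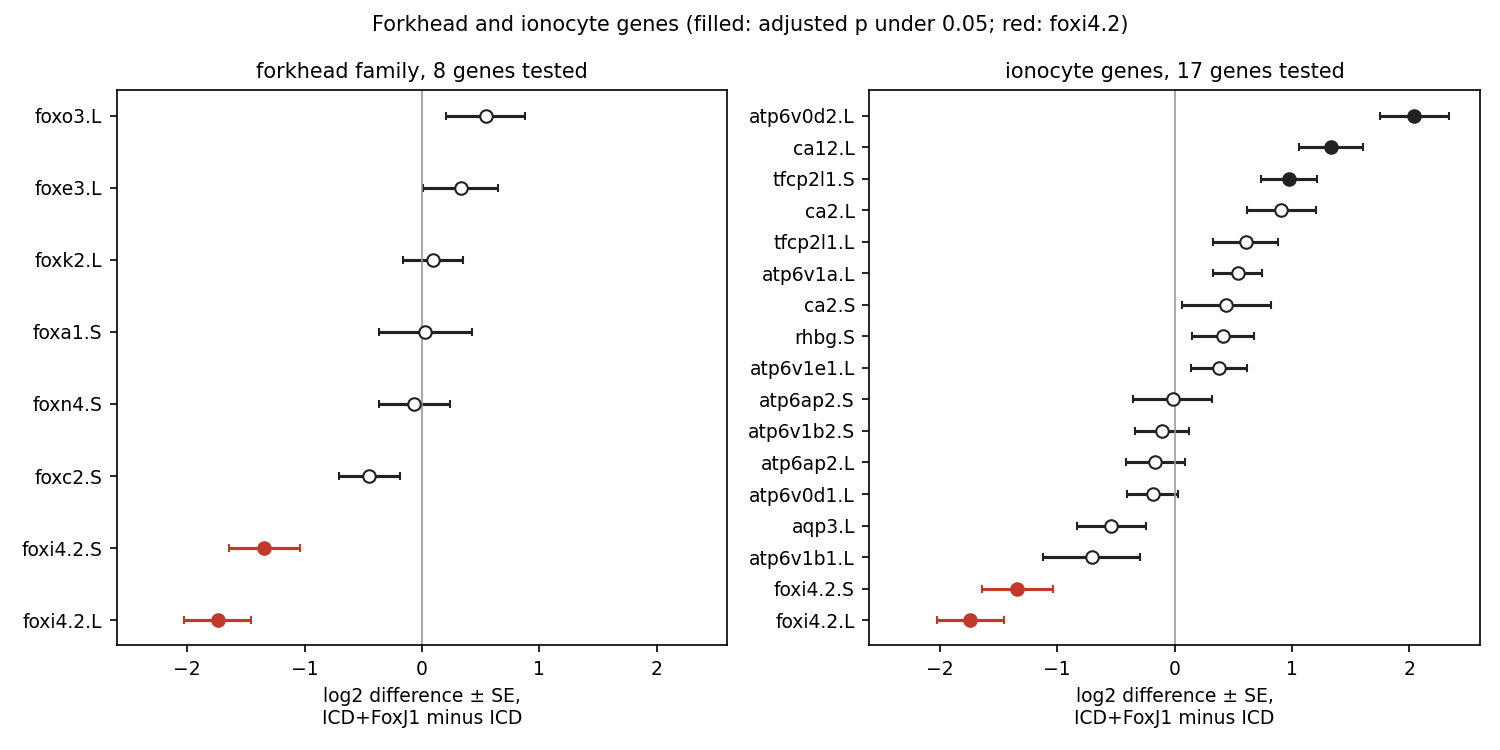
Log2 difference, ICD+FoxJ1 minus ICD, with its SE from limma, for the 8 tested forkhead genes (left) and the 17 tested ionocyte genes (right), filled where the adjusted p was under 0.05 and red for foxi4.2. The foxi4.2 homeologs lie at the low end of both panels, and atp6v0d2.L at 2.04 lies at the high end of the ionocyte panel.

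FoxI factors of the frog are also studied as regulators of early ectoderm, and a list of such regulators was read beside foxi4.2. Of its 23 other genes tested, 2 fell, 0 rose and 21 did not pass the limma test. Among all probe sets tested, 2.99% were called lower and 4.48% higher. At an unadjusted p under 0.05, 4 of the 23 were higher and 4 lower, beside 12.3% of all probe sets in each direction. Tp63.L, a factor of the basal layer of epidermis, read 26.3 and 36.2 on the ICD+FoxJ1 arrays, against 145.5, 150.6 and 151.3 on the ICD arrays, and fell by 1.81. Sox11.S, a factor of neural and ectodermal progenitors, had 384.0 and 583.7 with ICD and FoxJ1, against 1016.7, 930.9 and 1256.9 with ICD, and fell by 1.14. The median difference of the 23 genes was 0.07.

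Markers of other cells were read as well. Of the multiciliated, epidermal and neural lists, only the first had summed signals that did not overlap between the groups. Counts of each list stand beside 4.48% called higher and 2.99% lower over all probe sets (12.3% each unadjusted). Of 19 multiciliated cell genes tested, 13 rose and 0 fell by limma (16 higher and 0 lower at an unadjusted p under 0.05), and the list's summed signal was 31173 and 38170 on the ICD+FoxJ1 arrays, against 3722, 6644 and 8884 on the ICD arrays. The 6 tested genes of this list that did not pass were ccno.L (log2 difference 0.05), foxn4.S (-0.06), e2f4.S (0.05), rfx2.S (1.01), tubb4b.L (0.91) and tubb4b.S (1.44). Dnah9.S and myb.S were at or below background throughout. Of 21 genes that mark epidermal, goblet or small secretory cells 5 fell and 0 rose by limma (6 lower and 1 higher unadjusted), with sums of 52060 and 61242 with FoxJ1 against 59056, 59831 and 69808 without. Of 18 neural genes 4 fell and 0 rose by limma (5 lower and 3 higher unadjusted), with sums of 4633 and 4505 against 3442, 4995 and 4853, and 12 of the 35 on the array were at or below background on all arrays. The part of these cells in the foxi4.2 result was not tested.

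The explants carried epidermal RNA, as their label as ectoderm implies. Itln1.L, the intelectin of goblet cells, was picked for this check after its values were seen. It read 7648 and 8391 on the ICD+FoxJ1 arrays, against 5925, 6789 and 10404 on the ICD arrays. Its groups overlapped, but those of the 5 epidermal genes called lower did not. Krt19.L, a keratin gene among them, had 1321 and 1833 with ICD and FoxJ1, against 5704, 5628 and 7081 with ICD. Of the 21 epidermal genes tested, 0 were called higher and 16 did not pass. Epidermal RNA was thus present in both groups, but was not shown to be equal. Of 38 mesoderm and endoderm genes 23 were at or below background on all arrays. Of the 11 tested, 1 rose and 1 fell by limma, beside 4.48% called higher and 2.99% lower over all probe sets. Ckm.L, the one that fell, read 207.4 and 213.4 on the ICD+FoxJ1 arrays, against 493.7, 499.6 and 634.3 on the ICD arrays. Myod1.L rose, with 99.5 and 48.4 against 20.6, 21.7 and 21.3. Ckm.L RNA was thus present in both groups and differed between them. Myod1.L exceeded the background level on 1 of the 3 ICD arrays, so the size of its rise is uncertain. The ratio of 3′ to 5′ signal, usually read for RNA quality, was taken for beta actin and Gapdh. For beta actin it was 0.205 and 0.122 with FoxJ1 against 0.245, 0.217 and 0.181 without. For Gapdh it was 2.76 and 3.87 against 2.75, 3.80 and 2.80. For both genes the groups overlapped, but the actin ratios lay below 1 and the Gapdh ratios above 1. RNA quality is therefore not judged from them.

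Of 18 Notch pathway genes tested, 2 rose, 1 fell and 15 did not pass the limma test. At an unadjusted p under 0.05, 3 were higher and 1 lower. Over all probe sets tested, 4.48% were called higher and 2.99% lower, and 12.3% passed unadjusted in each direction. The genes that rose were hes5.10.L and hes5.2.L, of the Hes family of repressors. Hes5.10.L had 1589 and 1765 with ICD and FoxJ1, against 332.2, 259.2 and 136.3 with ICD. Hes5.2.L had 92.2 and 62.5 with ICD and FoxJ1, against 20.4, 12.8 and 11.9 with ICD. It was below the background level on all ICD arrays, so the size of its rise is uncertain. Jag1.L, a Notch ligand gene, had 40.0 and 45.9 with ICD and FoxJ1, against 161.7, 144.7 and 193.8 with ICD, and fell by 1.63. Hes5.1.L had 707.4 and 872.9 with ICD and FoxJ1, against 660.7, 44.7 and 23.0 with ICD, and did not pass (limma adjusted p = 0.159). Its ICD signal was highest on replicate 1, the array on which foxi4.2.S was highest too. How many of all probe sets were highest on that array was not counted, so no link is drawn.

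Likeness of pattern was measured as the root-mean-square distance between log2 profiles over the 5 arrays, each centred on its mean, among 6090 other named genes, and serves as a description with no test. The homeologs lay 0.41 apart (Pearson r = 0.893 over 5 arrays). Nearer to foxi4.2.L than its homeolog were 120 genes, and nearer to foxi4.2.S than its homeolog were 414. The 5 nearest to foxi4.2.L were prph.S, an intermediate filament gene of neurons (0.11), mycl.S, a Myc family gene (0.14), smtn.L, a smooth muscle actin-binding protein gene (0.16), jag1.L (0.17) and nckap5l.S (0.18). Prph.S was below the background level on both ICD+FoxJ1 arrays, so its distance rests in part on signals with no measured order. The 5 genes shared low signals on both ICD+FoxJ1 arrays and, among the ICD arrays, their lowest on replicate 2.

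Nearest to foxi4.2.S were dact4.L, of the Dishevelled-binding Dact family (0.08), ssb.L, the La RNA-binding protein gene (0.08), eif6.S, a ribosome assembly factor gene (0.08), mrtfa.S, a coactivator of serum response factor (0.08), and rdh10.L, a retinol dehydrogenase gene (0.10). Rdh10.L was likewise below background on both ICD+FoxJ1 arrays, and dact4.L on replicate 2. In each of the 5 genes ICD replicate 1 had the highest signal. For eif6.S, for example, it was 1129.6 there, against 608.2 and 621.3 on the other ICD arrays, and 339.3 and 302.6 on the ICD+FoxJ1 arrays. Correlations with the homeolog ran from 0.986 to 0.999 in these 10 genes, all over the same 5 arrays. The genes were chosen as the nearest, so these correlations and the patterns shared with the homeolog follow from that choice. The homeologs themselves differed in which ICD array was highest, replicate 3 for foxi4.2.L and replicate 1 for foxi4.2.S.

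**Figure D5:**
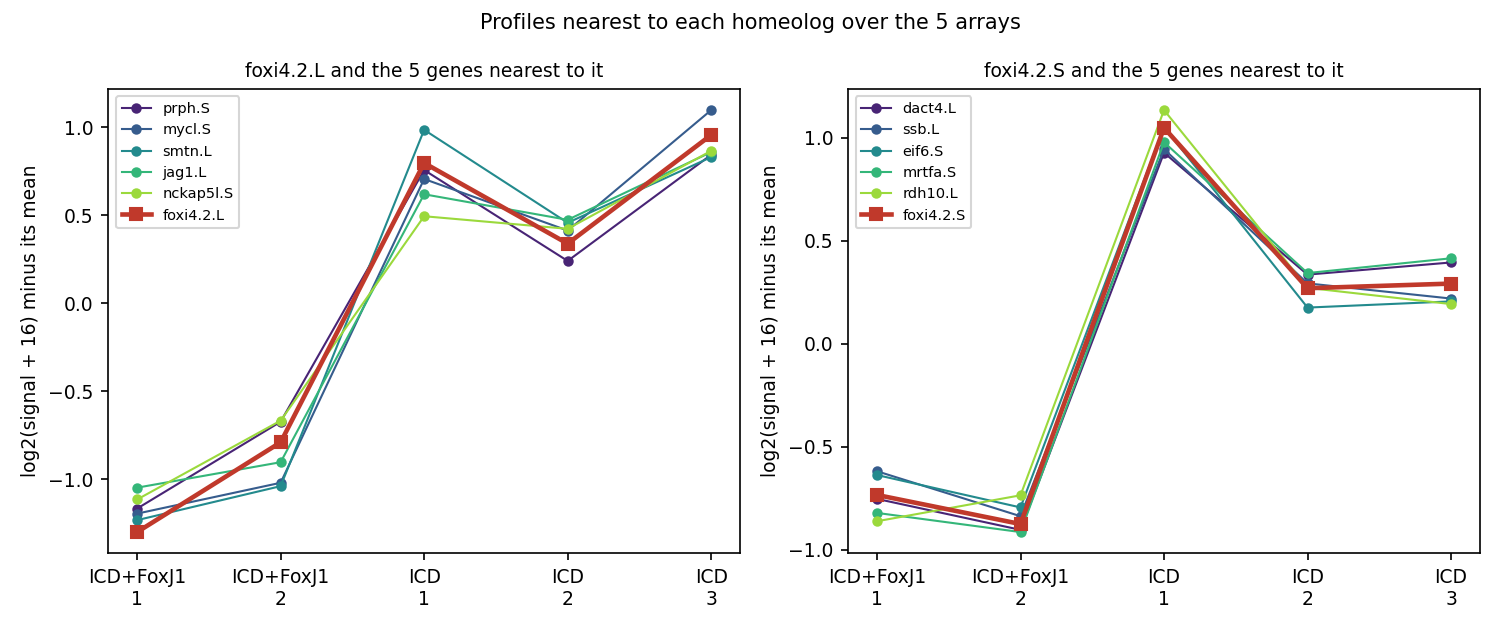
Log2(signal + 16) minus its mean over the 5 arrays, for each foxi4.2 homeolog (red squares) and the 5 named genes nearest to it (circles). Lines only join the points of a gene, since replicates have no order. In the left panel the ICD array with the lowest foxi4.2.L signal is replicate 2, and in the right panel replicate 1 stands above the other ICD arrays.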

How the data were processed

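The authors deposited 1 signal intensity per probe set and array on a linear scale, made, per the submitters' processing notes, with the MAS5 algorithm, whose version is not given in the sources used here. Of 15611 probe sets, 120 Affymetrix controls were left out. Probe sets were named from GEO's platform annotation (9304 with 1 symbol, 195 with several, 6112 with none), and 9227 gene identifiers matched RefSeq's gene table of assembly Xenopus_laevis_v10.1, used for names and gene order. Signals were compared as log2(signal + 16) after a filter that took out the dimmest 25% by mean log2 signal and kept all 3 foxi4.2 probe sets. Differences are ICD+FoxJ1 minus ICD, from limma 3.58.1 in R 4.3.3 (lmFit, eBayes with a trend), two-sided. P-values were adjusted by Benjamini-Hochberg across the 11618 tested, with calls at 0.05, and the code was tested on simulated data. The number of arrays limits the precision. In a list each gene is read on its brightest probe set. Named are all members, called and next-ranked forkhead (6) and ionocyte (6) genes by p, up to 4 genes of each other list and the 5 nearest profiles. The members and lists were chosen with earlier results of these data known. Figures were drawn with matplotlib 3.10.9.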

Additional observations from a re-analysis of the deposited data

How the results depend on the processing

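In the 14 alternative settings with a test, foxi4.2.L by its brighter probe set kept its direction in all and its call in 10, foxi4.2.S kept its direction in all and its call in 6, and the dimmer foxi4.2.L probe set was called in none (limma adjusted p 0.269 to 0.862). Leaving out single arrays gave log2 differences of -2.0 to -1.49, -1.47 to -1.09 and 0.13 to 0.66 in these 3 probe sets, 116 to 740 probe sets called higher and 32 to 647 lower, 0 to 2 forkhead genes lower, and 0 to 3 ionocyte genes higher and 0 to 2 lower. The difference in the log2 ratio of foxi4.2.L over foxi4.2.S then ran from -0.73 to -0.07. With no filter, foxi4.2.S differed by -1.34 (adjusted p = 0.0545), and 1 forkhead and 1 ionocyte gene were lower. With the poly-A split as a block, foxi4.2.S differed by -1.30 (adjusted p = 0.0798), 212 probe sets were lower, and 1 forkhead gene was lower, as was 1 ionocyte gene, with 1 higher. Among the bright poly-A arrays alone, the homeologs differed by -1.87 and -1.39, 166 probe sets were higher and 23 lower, 0 forkhead genes were lower, and 1 ionocyte gene was higher and 0 lower. With the replicate number as a block over the 4 arrays that share numbers, foxi4.2.L differed by -1.61 (adjusted p = 0.0952) and foxi4.2.S by -1.46 (adjusted p = 0.107), 247 probe sets were higher and 71 lower, 0 forkhead genes were lower, and 1 ionocyte gene was higher and 0 lower. Deviations from the group means of same-numbered arrays correlated at -0.06 and -0.32. With 2 ICD+FoxJ1 arrays these deviations mirror each other, so this check cannot tell whether the numbers pair the samples. In each setting that ended a call the cause was not tested. Some of these settings bring fewer arrays, a larger number of probe sets or an added block. The direction of the foxi4.2 falls could not turn when arrays were left out, since the groups did not overlap. Signal over background limits what the dimmer foxi4.2.L probe set can show on the ICD arrays.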

Other observations

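In RefSeq's gene order for assembly Xenopus_laevis_v10.1, foxi4.1 lies next to foxi4.2 on both the L and the S chromosome. Among the 10 genes on either side, 6 of the 20 around foxi4.2.L and 2 of the 20 around foxi4.2.S had a probe set with 1 gene name. This comparison, and the genes it names, were chosen after the data had been seen. Among all probe sets tested, 7.47% were called and 12.3% passed unadjusted in each direction, so counts over so few neighbours say little. Of 5 probe sets tested around foxi4.2.L, limma called 0, with 1 at an unadjusted p under 0.05, and their log2 differences ran from 0.10 to 0.68. Of 3 tested around foxi4.2.S, limma called 0, with 0 at an unadjusted p under 0.05, and the differences ran from 0.05 to 0.61. The highest was that of immt.L, a gene of the mitochondrial inner membrane, with signals of 81.3 and 122.5 on the ICD+FoxJ1 arrays, against 54.0, 52.6 and 63.8 on the ICD arrays. Kdm3a, a histone demethylase gene, was read for both homeologs. Kdm3a.L had signals of 513.9 and 361.8 with ICD and FoxJ1, against 302.7, 493.0 and 434.4 with ICD. On one probe set kdm3a.S had 114.6 and 112.2 with ICD and FoxJ1, against 35.2, 99.4 and 87.7 with ICD, and on the other 692.0 and 590.5 with ICD and FoxJ1, against 496.8, 715.4 and 604.0 with ICD. Among the kdm3a probe sets the groups overlapped except on the first of kdm3a.S, where the arrays with FoxJ1 were higher (log2 difference 0.61, limma adjusted p = 0.352). For immt.L, too, both arrays with FoxJ1 lay above all ICD arrays, as 21.2% of all tested probe sets did. None of the tested neighbours had a log2 difference below 0, beside a median of -0.03 over all probe sets tested. Since kdm3a.S was read on more than 1 probe set and none was called, nothing is drawn from this.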
